A study of Homo sapiens with 25 samples.

Results

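The comparison described here is the RNA that came down with wild-type mCherry-IGF2BP1 under arsenite stress, set against the RNA that the same beads recovered from parental cells without the fusion protein. It rests on 4 of the 25 RIP-seq libraries of the series, chosen by their labelled genotype and treatment: 3 wild-type arsenite libraries and 1 parental arsenite library. HCT116 is a human colorectal carcinoma cell line. The wild-type libraries came from HCT116 cells labelled mCherry-IGF2BP1 WT, in which both paralogs were knocked out (IGF2BP2 KO and IGF2BP3 KO) and which also carry Tet-OsTIR1-PURO. The fusion was introduced with a lentivirus into a knockout line derived from sorted single cells, and the cells used were a population sorted within a narrow mCherry gate. The parental library is labelled HCT116 alone, a label that names no knockout and no mCherry. Cells of both kinds received 500 µM sodium arsenite, an oxidative stressor that halts translation and drives mRNA into stress granules, for 2 h before collection. The fusion was captured from the lysate on RFP-Trap magnetic beads, rRNA was depleted, and stranded libraries were sequenced.

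IGF2BP1 is an oncofetal RNA-binding protein with RRM and KH domains joined by flexible linkers. It is known for binding mRNAs of growth and migration genes, for guarding some of them from decay and from microRNAs such as let-7, and for carrying β-actin mRNA in migrating cells through an element in its 3′ UTR. During stress it enters stress granules. Parental cells have nothing for the beads to grip, so their RNA measures what sticks to beads or tubes. The ratio over that library compares the level of an RNA in the pull-down with its level in this background. Each library is scaled to the bulk of its mRNAs, so the ratio is relative, and the amount of RNA recovered does not enter it.

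The ratio used throughout is the mean CPM of the 3 wild-type arsenite libraries divided by the CPM of the parental arsenite library, with CPM scaled by TMM (trimmed mean of M-values, a scaling that takes most genes as equal). A ratio of 4 is the background threshold in the study's definition of a target, whose other condition rests on RNA-Seq. Because the background has 1 library, no test could be made, and each error printed with a ratio is the SD over the 3 wild-type libraries alone (n = 3). A ratio holds both the pull-down and any difference in RNA amount between the parental and the engineered cells, and these cannot be told apart here, since RNA-Seq libraries were not analysed here.

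Several sequences serve as landmarks for the results that follow, printed 5′ to 3′ from the hg38 genome at the canonical GENCODE transcripts, and for the microRNA from RefSeq (GRCh38.p14). The first is the microRNA let-7a-5p with its seed in capitals, since several described IGF2BP1 targets are let-7 targets. The HMGA lines show each match to CTACCTC, the complement of that seed, in the 3′ UTR of HMGA1 and HMGA2, the best known let-7 targets among the enriched RNAs. The ACTB line shows the 3′ UTR window with the letters CGGAC and ACACCC in capitals, the bipartite element described for IGF2BP1, because ACTB is the textbook target and lay below the parental level here. The UCA1 lines show the ACACCC letters of the long noncoding RNA with the highest ratio among those with over 10 parental counts.
let-7a-5p: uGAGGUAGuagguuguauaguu
HMGA1 3′ UTR, chr6:34245830-34245851, plus strand: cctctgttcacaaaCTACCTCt
HMGA2 3′ UTR, chr12:65963299-65963320, plus strand: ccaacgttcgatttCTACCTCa
HMGA2 3′ UTR, chr12:65964534-65964555, plus strand: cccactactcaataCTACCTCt
HMGA2 3′ UTR, chr12:65964946-65964967, plus strand: tgacttgcaaagacCTACCTCc
HMGA2 3′ UTR, chr12:65965799-65965820, plus strand: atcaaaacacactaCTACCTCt
ACTB 3′ UTR, chr7:5527717-5527746, minus strand: CGGACtatgacttagttgcgttACACCCtt
UCA1 transcript, chr19:15834509-15834536, plus strand: gccatatgaagACACCCtagctggacga
UCA1 transcript, chr19:15834931-15834958, plus strand: aaattttttccACACCCaaaacaaaaaa

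The wild-type libraries held 46914852, 29414260 and 34034910 counts and the parental library 18942497. The fusion's own gene separated the labels: IGF2BP1 stood at 40.6, 42.4 and 37.2 CPM in the wild-type libraries and had 0 counts in the parental library. IGF2BP2 lay at 183 ± 8.27 CPM against 145 in the parental library (ratio 1.26) and IGF2BP3 at 154 ± 7.56 CPM against 135 (ratio 1.14), so the transcripts of both knocked-out genes were still counted. All 6 epithelial markers were measured in all 4 libraries, with ratios from 0.432 to 1.32, and none of the 10 blood, endothelial, fibroblast and liver markers passed the filter. Of these, COL1A1 had 10.9 CPM in the wild-type mean and 32.8 CPM in the parental library. Mitochondrial rRNA took between 24.4 and 29.1% of all counts in the wild-type libraries and 11.8% in the parental library.

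The low counts of the parental library were unusual and bear on every high ratio. Among 11988 protein-coding genes with any count in that library, 65 (0.542%) had between 1 and 9 counts, 97 had between 10 and 19, and 699 had between 20 and 49. In the wild-type libraries between 9.11 and 11.8% of the detected genes had 1 to 9 counts. A gene seen at all in the parental library therefore seldom had fewer than 20 counts, and 8056 of 20044 protein-coding genes had none. The counting intervals and the floor of 3 counts used for zeros cover counting error only and are narrower than the real error. PCR copies are not independent molecules and would add to that error, but their part in the missing low counts was not tested. For the genes at the top of the order with a parental count under 100, the ratio is also given with that count raised to 100, an alternative chosen after the data were seen.

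Of 8734 protein-coding genes that passed the filter, 802 (9.18%) lay at least 4-fold over the parental library. They were 12 mitochondrially encoded mRNAs and 790 nuclear ones. The median ratio of all 8734 genes was 1.14, the quartiles were 0.694 and 2.03, and 3757 genes (43.0%) were at or below the parental level. At a ratio of 0.25 or less lay 70 genes (0.801%). With a filter of over 10 CPM in the wild-type mean or the parental library, 209 of 9617 did. Within 1.5-fold of the parental level in either direction lay 3486 genes (39.9%), while 287 genes lay past 8-fold and 103 past 16-fold. Scaled by library totals only, 375 genes lay at least 4-fold over, 5831 at or below the parental level and 630 at 0.25 or less.

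The replicates were close to each other. The median coefficient of variation over the 3 wild-type libraries was 7.26%. In each wild-type library taken alone 833, 767 and 803 genes passed 4-fold, 716 genes passed in all 3, and 165 passed in some libraries but not in others. The genes nearest the threshold show how fine it is, with TRIM5 at 4.002 and PMP22 at 4.001 just inside and SF3A2 at 3.997 and S100A11 at 3.988 just outside. With the upper 95% counting limit of the parental count in place of the count itself, 689 genes passed. When every parental count under 100 was set to 100, 729 genes passed, since 86 of the 159 enriched genes with such a count still did.

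**Figure D1:**
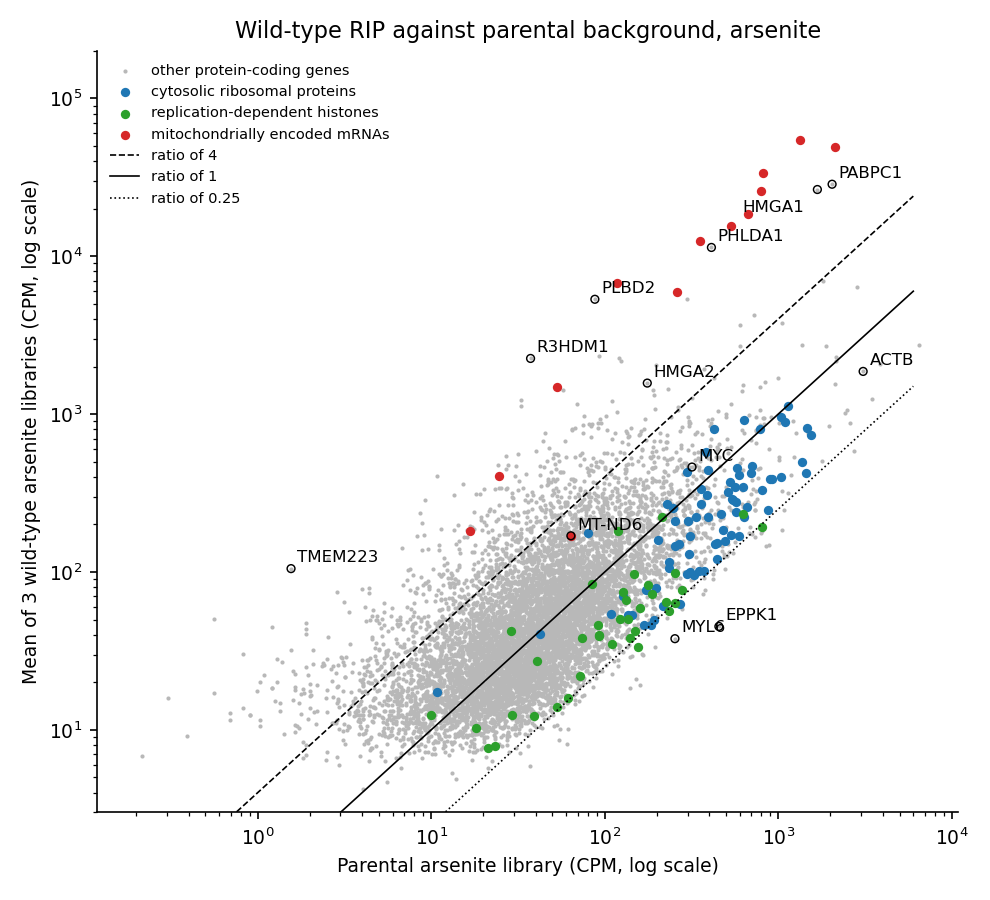
Mean CPM of the 3 wild-type arsenite libraries against CPM in the parental arsenite library, both on log scales, for protein-coding genes that passed the filter and had a parental count above 0. Lines mark ratios of 4, 1 and 0.25. All but 1 of the mitochondrially encoded mRNAs (red) lie above the upper line, where PABPC1, HMGA1, HMGA2, PLBD2, R3HDM1 and PHLDA1 also lie, while most ribosomal protein mRNAs (blue) and histone mRNAs (green) lie below a ratio of 1.

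The most enriched group was the mitochondrially encoded mRNAs, which code for subunits of the respiratory chain and ATP synthase. Of the 13, all of which passed the filter, 12 lay at least 4-fold over the parental library, and the median ratio was 27.8. MT-ND2, a complex I subunit, had 5731, 6727 and 7731 CPM in the wild-type libraries against 117 in the parental library, a ratio of 57.3. MT-CYB, the cytochrome b of complex III, reached 41.0 and MT-ND4, another complex I subunit, 40.8. The lowest replicate ratio was 37.98 for MT-CYB and 35.3 for MT-ND4, so all replicates stood far over the parental value. MT-ATP6 of ATP synthase stood at 35.2 and the cytochrome c oxidase subunits MT-CO3, MT-CO2 and MT-CO1 at 32.4, 27.7 and 23.1. MT-ND5, MT-ND4L and MT-ND1 had ratios of 29.1, 27.8 and 22.5, and the short MT-ATP8 and MT-ND3 of 16.4 and 10.9. The exception was MT-ND6, the mRNA transcribed from the other strand of the mitochondrial genome, with 127, 224 and 158 CPM against 63.8, a ratio of 2.66. Its replicate ratios ran from 1.99 to 3.51 and its parental count was 1475.

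Mitochondrial mRNA made up 18.3, 21.1 and 19.8% of the protein-coding counts in the wild-type libraries and 1.04% in the parental library. In the 8 mutant arsenite libraries of the series the share ran from 13.1 to 17.3%, and in the parental control library, which held few counts, it was 3.71%. The parental arsenite library thus stood apart from these arsenite fusion libraries, as it did in its share of mitochondrial rRNA and in its low counts. In the parental control library mitochondrial rRNA took 32.7% of all counts, within the 31.8 to 38.2% of the fusion control libraries. The part of these differences in the ratios of mitochondrial mRNAs was not tested. Scaling on these mRNAs instead of TMM would bring their own median to about 1 and would put 8683 of the 8734 genes at a ratio of 1 or less, so every statement on nuclear mRNAs here takes the bulk of nuclear mRNAs as the reference. With TMM factors computed without them the count of enriched genes was again 802.

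Among nuclear mRNAs with a firm parental count, the highest ratios belonged to PLBD2, a lysosomal phospholipase B-like protein, and R3HDM1, an R3H-domain protein. PLBD2 had 4653, 5433 and 5916 CPM in the wild-type libraries against 87.8 in the parental library (ratio 60.8 ± 7.26). R3HDM1 had 2193, 2223 and 2335 CPM against 37.4 (ratio 60.2 ± 2.00). The lowest replicate ratios were 53.02 and 58.66. These genes were named by that lowest ratio, and the replicate spread does not hold the error of the single parental library. PROSER1, TAB2 and CHMP3 followed. TAB2, an adaptor of TAK1 kinase in inflammatory signalling, had 1121, 1136 and 1100 CPM against 33.0 (ratio 33.9 ± 0.555). CHMP3, a subunit of the ESCRT-III membrane scission complex, had 417, 375 and 426 CPM against 10.8, with 250 parental counts (ratio 37.5 ± 2.51), and PROSER1 stood at a ratio of 37.1 ± 0.938.

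Other genes at the top of the order had few parental counts. TMEM223, with 36 parental counts, had a ratio of 67.4 that became 24.3 with the count raised to 100. For NREP, with 59 counts, the values were 47.2 and 27.8. TET1, the DNA demethylase, had 45.33, 43.96 and 44.96 CPM against 28 counts (36.9, or 10.3 with 100 counts), and REPS2, an endocytic adaptor, had 19 counts (36.7, or 6.97). All of these remained past 4-fold, but their rank among enriched RNAs did not hold.

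A total of 34 of the 8734 genes had no parental count. Their wild-type means ran from 6.69 to 58.3 CPM, which against the floor of 3 counts put them at least 51.5-fold to at least 449-fold over the parental library. SERPING1, the C1 complement inhibitor, had 60.3, 56.1 and 58.5 CPM (at least 449-fold), IGF2BP1 itself lay at least 309-fold over, and CAMK1D, a calmodulin-dependent kinase, at least 264-fold. CD22, a sialic-acid-binding lectin of B cells, and PIGB, a mannosyltransferase of GPI anchor synthesis, were at least 202-fold and 195-fold over. With 100 counts in the parental library, 9 of the 34 genes passed 4-fold, at ratios up to 13.5. IGF2BP1 was then at 9.26. Of the 34, 30 also had 0 counts in the parental control library, which is shallow.

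Among the enriched RNAs with the highest wild-type CPM (not divided by length), the nuclear ones were PABPC1, HMGA1 and PHLDA1. PABPC1, which codes for the cytoplasmic poly(A)-binding protein, had 29381, 27496 and 28788 CPM against 2043 (ratio 13.98 ± 0.472). HMGA1, an oncofetal chromatin protein whose 3′ UTR holds the let-7 match printed above, had 27459, 25923 and 25929 CPM against 1680 (ratio 15.7 ± 0.527). PHLDA1, a pleckstrin-homology-like protein induced by growth factors and stress, had 10732, 11526 and 11817 CPM against 412 (ratio 27.6 ± 1.36). For each of them all wild-type libraries lay far over the parental value. Genes at least 4-fold over made up 40.4, 41.9 and 41.6% of the protein-coding counts of the wild-type libraries and 5.13% of the parental library. The nuclear-encoded ones among them made up 22.1, 20.8 and 21.8% against 4.10%. The direction of these gaps follows from choosing the genes by their ratio. Reads that map to several places are left out by the counting tool's default, and PABPC1 and HMGA1 have close copies elsewhere in the genome, so their levels may be too low in all 4 libraries.

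Of the 11 genes the study names for RIP, 9 passed the filter, 4 were at least 4-fold over and 1 was below 1. These genes were picked by the study with these samples in view, so their count is no independent evidence. Beside PABPC1, HMGA2 had 1671, 1433 and 1610 CPM against 176 (ratio 8.93 ± 0.703). PHC3, a polycomb group protein, stood at 7.72 with replicate ratios between 7.56 and 7.85, and GARS1, the glycyl-tRNA synthetase, at 4.67 with replicate ratios between 4.62 and 4.75. LIPA, the lysosomal acid lipase, had a ratio of 2.16, EIF2A, an alternative initiation factor, of 2.05 and XBP1, the transcription factor of the unfolded protein response, of 1.92. MYC had 433, 481 and 471 CPM against 318, a ratio of 1.45 that was over 1 in each wild-type library. ACTB had 1885, 1911 and 1792 CPM against 3084, a ratio of 0.604 that was below 1 in each. CCDC127 and LIN28B did not pass the filter, and LIN28B had 0 counts in the parental library and in 2 of the wild-type libraries.

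**Figure D2:**
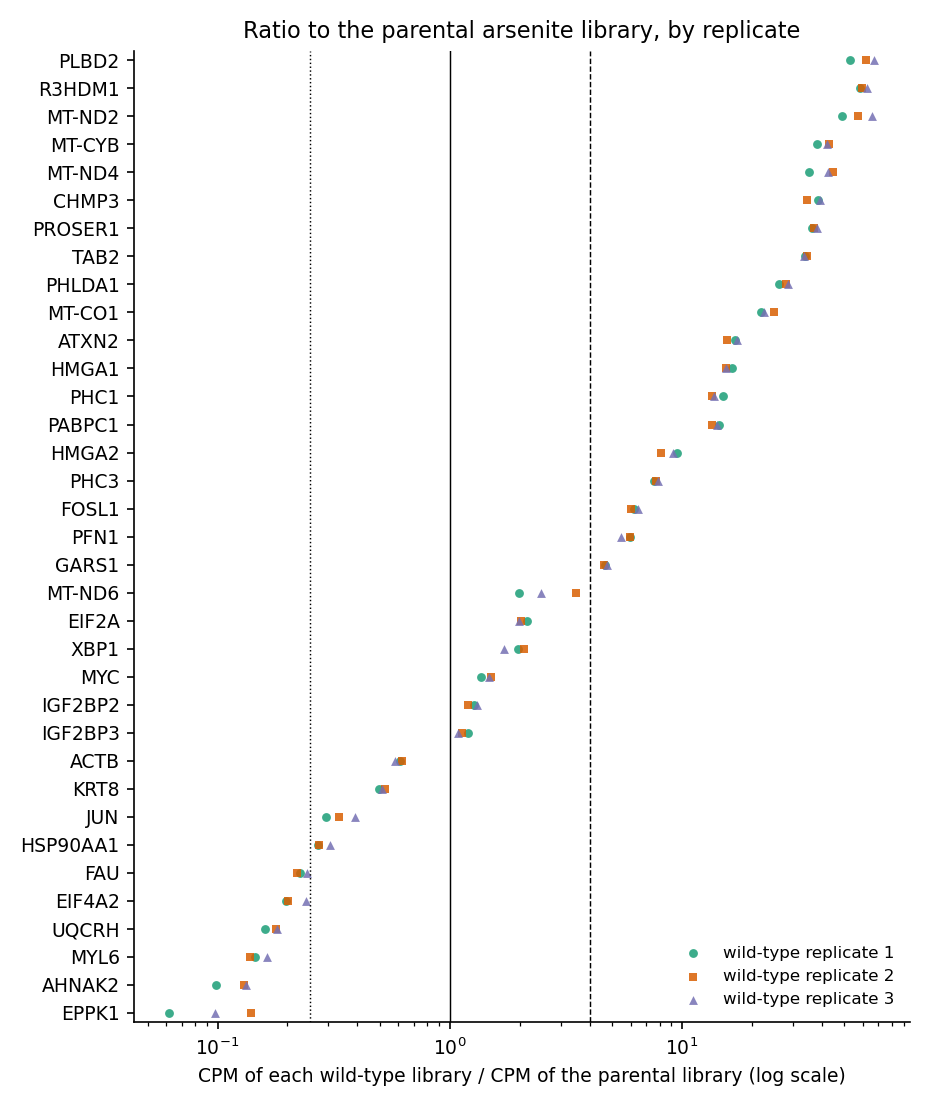
Ratio of each wild-type arsenite library (one symbol per replicate) to the parental arsenite library on a log scale for selected genes, ordered by the mean ratio. Lines mark ratios of 0.25, 1 and 4, and the 3 replicates of a gene lie close together compared with the distances between genes, with the widest spread at EPPK1.

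Of 20 described IGF2BP1 targets, 15 passed the filter. At least 4-fold over were 3 (20.0%, against 9.18% of all genes), and 5 were at or below the parental level (33.3%, against 43.0%). The median ratio was 1.46, against 1.14 for all genes. Among the enriched members were HMGA2, described above, and CD44, the hyaluronan receptor, which stood at 5.21. FSCN1, EIF2A and XBP1 lay between 1.92 and 2.09. SRF, CTNNB1, ACTB, MKI67 and E2F1 were below 1 in every wild-type library, with ratios from 0.476 for E2F1 to 0.872 for SRF. Of the members that did not pass the filter, GLI1 had 10.3 ± 1.33 CPM against 14 parental counts, IGF2 had 13.7 ± 2.26 CPM against 9.002 (ratio 1.52), and the noncoding H19 and the drug pump ABCB1 had no parental count.

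Of 21 let-7 target mRNAs of the oncofetal program, 16 passed the filter, 3 were at least 4-fold over (18.8%, against 9.18% of all genes) and 7 were at or below 1 (43.8%, against 43.0%). Their median of 1.11 lay beside that of all genes. HMGA1 with 15.7 and HMGA2 with 8.93 were the highest, while NR6A1 was at 2.12 and NRAS at 2.00. CCND1, the cyclin D1 gene, was at 1.20, DICER1 at 0.851, CDK6 at 0.686, and HIC2 at 0.557 was the lowest. The match CTACCTC was in 13.3% of the 3′ UTRs of nuclear mRNAs at least 4-fold over (105 of 788), in 13.3% of those between 1 and 4-fold and in 10.7% of those at or below the parental level, against 12.2% of all 8714, searched on the transcript strand. These shares depend on 3′ UTR length, which was shorter in the last class. Pooled per kb of 3′ UTR, the matches were 0.0732, 0.0615 and 0.0654 in the same order, against 0.0641 over all.

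The ACTB element was rare in all classes. The letters CGGAC followed within 10 to 25 bases by ACACCC were found in 50 of 8721 canonical transcripts (0.573%). Of these, 2 were at least 4-fold over (0.253% of that class), 29 between (0.695%) and 19 at or below the parental level (0.506%). ACACCC alone was in 52.1% of transcripts, in 54.9% of the enriched ones and in 49.1% of those at or below the parental level, on the transcript strand. Of the other actin genes, ACTG1 had a ratio of 0.420. Over 24 members of the list of actin and actin regulators, 3 were at least 4-fold over (12.5%, against 9.18% of all genes) and 12 at or below 1 (50%, against 43.0%). PFN1, profilin, which feeds actin monomers to growing filaments, had a ratio of 5.79, and WASF2 and WASL, activators of the Arp2/3 complex, of 5.72 and 4.32. TMSB10 and TMSB4X, which hold actin monomers back, were lowest at 0.242 and 0.313.

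Stress granule proteins are relevant because arsenite puts IGF2BP1 into the same granules. Their 20 mRNAs all passed the filter, 4 were at least 4-fold over (20.0%, against 9.18% of all genes) and 10 at or below 1 (50%, against 43.0%), with a median of 1.06. ATXN2, ataxin-2, had a ratio of 16.6 with replicate ratios between 15.6 and 17.2, followed by PABPC1, ATXN2L, its paralog, at 10.4 and UBAP2L at 6.89. CAPRIN1 was at 2.86. The mRNAs of the granule core proteins G3BP1 and G3BP2 were at 0.463 and 0.933, and DDX3X and YBX1 at 0.453 and 0.454. PABPC1 and PABPC4, which code for related poly(A)-binding proteins, thus lay on opposite sides of the parental level, at 13.98 and 0.691.

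Of 24 polycomb mRNAs that passed the filter, 3 were at least 4-fold over (12.5%), 10 were at or below 1 (41.7%), both near the shares of all genes, and the median was 1.29. PHC1 with 14.1 (170 parental counts), PCGF2 with 7.92 and PHC3 with 7.72 belong to the complex that ubiquitylates histone H2A. Its paralog PHC2 was at 1.71. CBX8, a chromodomain member of the same complex, was lowest at 0.249. Among cyclins and cell cycle kinases, 1 of 18 was enriched (5.56%, against 9.18% of all genes), CCNA2 (cyclin A2) at 5.81. CCNE1 was at 3.36, and CCNB1 and CDKN1B were at 0.420 and 0.412. The p53 targets had 1 of 14 (7.14%), BTG2 at 4.96, with ZMAT3 at 2.83 and TNFRSF10B and GDF15 at 0.560 and 0.435.

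Lists of signalling, secretory and other genes held between 0 and 2 enriched members each. That was 0 to 11.8% of the members that passed the filter, against 9.18% of all genes. Of 21 WNT receptors and regulators, DVL3, a Dishevelled scaffold, was at 6.43 and PORCN, the WNT acyltransferase, at 3.06, and DKK1 and FZD1 were at 0.368 and 0.327. Of 17 TGF-beta receptors and SMADs, SMURF1, a ubiquitin ligase of the pathway, was at 5.50, SMAD9 had 14.9 ± 2.45 CPM and no parental count (ratio 3.45 with 100 counts, under 4-fold), and TGFBR1 and SMAD3 were at 0.619 and 0.567. Among 20 glycosyltransferases of the Golgi, HS2ST1, a heparan sulfate sulfotransferase, reached 11.7 and FUT8, the core fucosyltransferase, 7.64, with XYLT2 and MGAT5 at 0.639 and 0.524. SLC39A6, a zinc importer, was at 7.31 and SLC7A6 at 2.97 among 18 solute carriers, whose lowest members SLC7A11 and SLC30A1 were at 0.375 and 0.384. None of 9 integrins passed 4-fold, and their ratios ran from 0.736 to 1.49. Of 58 zinc finger genes of chromosome 19, 2 did (3.45%, against 9.18% of all genes), and 29 were at or below 1. ZNF580 at 7.73 passed in each replicate. ZNF585B at 5.97 rested on 40 parental counts, had a lowest replicate ratio of 3.70 and was at 2.39 with 100 counts. The microRNA machinery had 1 of 15, DROSHA at 4.08, which was below 4 in at least 1 replicate, with TARBP2 and DGCR8 at 0.305 and 0.328.

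Most mRNAs of ribosomal proteins, histones and the proteasome lay at or below the parental level, against 43.0% of all genes. Of 75 cytosolic ribosomal protein mRNAs, 0 were at least 4-fold over, 65 were at or below 1, and the median was 0.503. The lowest was FAU, which codes for a ubiquitin-like fusion with RPS30, with a mean of 62.7 ± 3.24 CPM against 272 (ratio 0.231). RPL41 at 2.21 and RPL15 at 1.89 were the highest. Replication-dependent histone mRNAs, which end in a stem-loop and carry no poly(A) tail, were lower still, with 33 of 37 at or below 1, 0 enriched and a median of 0.388. Of these H2BC21 was at 0.216, H1-2 at 0.238 and H3C12 at 1.54. Proteasome subunits had 24 of 29 at or below 1 with a median of 0.500, from 0.270 for PSMC3 to 2.62 for PSMD8.

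The nuclear-encoded complex I subunits differed from their mitochondrial partners. Of 26, 20 were at or below 1 (76.9%, against 43.0% of all genes) and 0 were enriched. The median was 0.616, against 27.8 for the mitochondrially encoded mRNAs, which include 7 complex I genes by name (MT-ND1 to MT-ND6 and MT-ND4L). NDUFA3 at 3.04 was the highest and NDUFS6 at 0.243 the lowest. Of 20 aminoacyl-tRNA synthetases, GARS1 alone was enriched (5.00%, against 9.18% of all genes) and 13 were at or below 1 (65.0%). WARS1 at 3.09 came next, while CARS1 and RARS1 were at 0.344 and 0.362. Of 35 translation initiation factors, EIF4G3 at 5.16 alone was enriched (2.86%), 26 were at or below 1 (74.3%), and EIF4A2 was lowest at 0.213.

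Most genes of stress programs that arsenite is known to induce lay at or below the parental level, against 43.0% of all genes. Heat shock chaperone mRNAs had 12 of 13 at or below 1 and a median of 0.556. HSP90AA1 had 505 ± 32.4 CPM against 1787 (ratio 0.283) and HSPA1B 135 ± 16.5 CPM against 472 (ratio 0.287), while HSPD1 was at 0.995 and HSPA4L at 1.54. The NRF2 and metallothionein genes, which answer oxidants and metals, had 10 of 12 at or below 1 with a median of 0.470, MT2A at 0.308 and TXN at 0.361 being lowest and OSGIN1 at 1.43 among the highest. Of 8 ATF4 stress genes, PPP1R15A, the eIF2α phosphatase subunit, was at 0.217, ATF4 at 0.329, SESN2 at 1.28 and TRIB3 at 1.33. The immediate early genes were divided: FOSL1 with 1441 ± 51.2 CPM against 231 (ratio 6.23) and EGR3 (5.79) were enriched, and JUN (0.340) and IER2 (0.382) were not, with 7 of 12 at or below 1. The parental cells also received arsenite, so these ratios do not measure induction. The medians of the ribosomal protein, histone, proteasome, complex I, synthetase, initiation factor, heat shock, NRF2 and ATF4 lists were below 1 and below that of all genes in every alternative setting that was run. With total counts the medians of 14 of the 27 lists went from above to below 1.

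**Figure D3:**
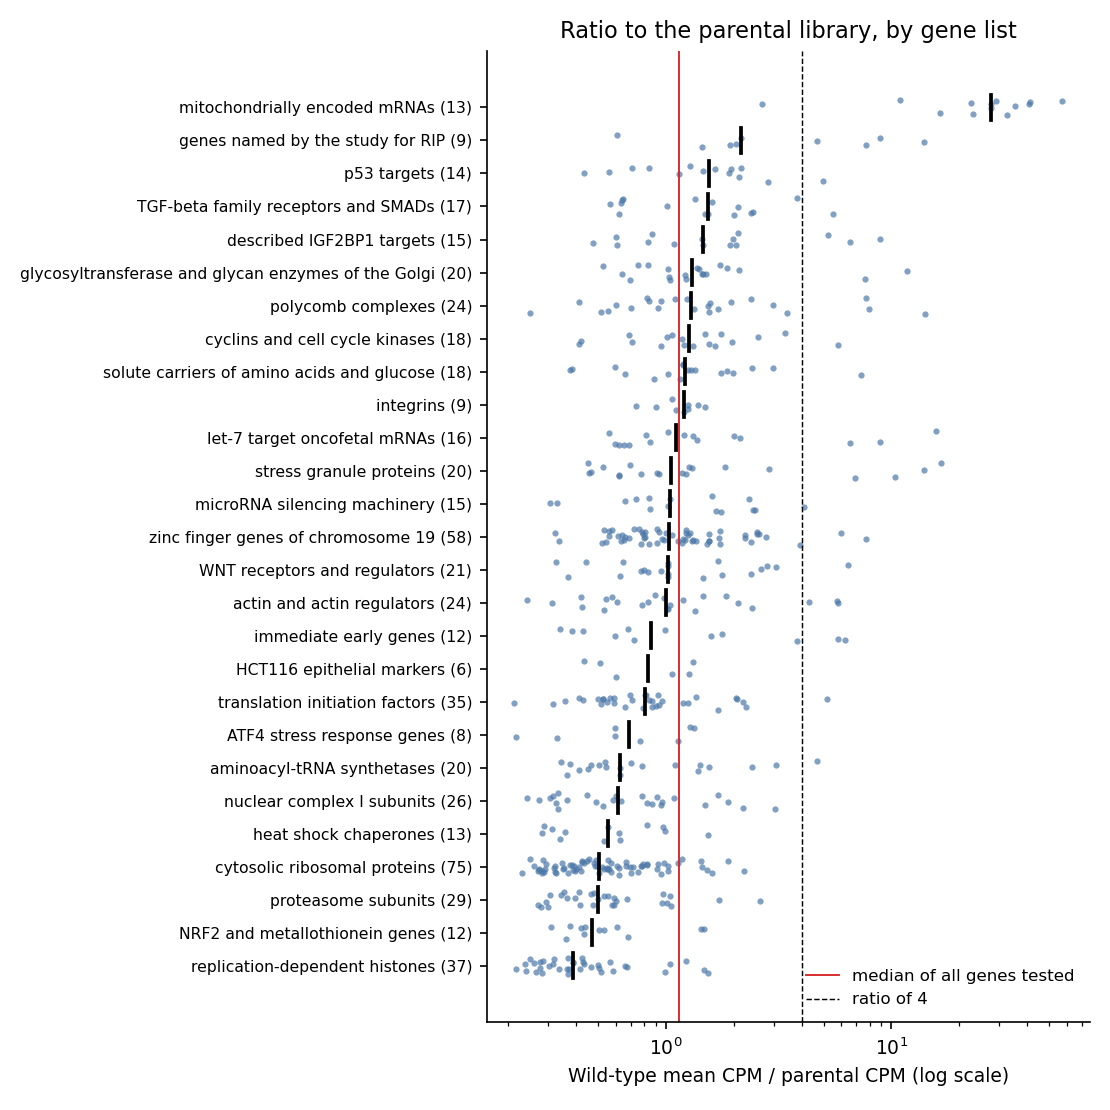
Ratio of the wild-type mean to the parental library on a log scale for each member (point) of each gene list, with the number of members that passed the filter in brackets and the list median as a black bar. Members with no parental count are not drawn. The mitochondrially encoded mRNAs stand apart at a median of 27.8, most medians lie near that of all genes (red line, 1.14), and ribosomal protein, proteasome, stress response and histone mRNAs lie below it.

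At the other end, the 10 genes lowest by the ratio of the highest wild-type library were AHNAK2, EPPK1, MYL6, ADM, LSM7, YJU2, UBL5, UQCRH, RPL36AL and TENT5B. AHNAK2 and EPPK1 code for giant scaffold proteins. EPPK1, epiplakin, had 28.2, 63.2 and 44.1 CPM against 455 (ratio 0.0994), with replicate ratios between 0.0621 and 0.139. AHNAK2 was at 0.120. MYL6, the nonmuscle myosin light chain, had 36.8, 34.9 and 41.6 CPM against 254 (ratio 0.149), and ADM, the hypoxia-induced peptide adrenomedullin, was at 0.133. LSM7, a subunit of the U6 and decay Lsm rings, YJU2, a splicing factor, UBL5, a ubiquitin-like splicing protein, and UQCRH, a hinge protein of complex III, were at 0.135, 0.159, 0.158 and 0.173. RPL36AL was at 0.140 and TENT5B at 0.183. In each of these 10, all 3 wild-type libraries lay below the parental value, which follows from ordering by the highest wild-type library.

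The filter asks for over 10 CPM in at least 11.5 of the 23 fusion libraries, and so removes RNAs found only in the parental library. A further 862 protein-coding genes had over 10 CPM in the parental library but did not pass. Of these, 845 were at or below the parental level, with a median ratio of 0.417. That was largely fixed by the choice of genes that failed the fusion-library filter and were over 10 CPM in the parental library. The following 4, chosen after their values were seen, were among the lowest and nearly absent from the wild-type libraries. DAPK1, a death-associated kinase, had 0, 2 and 4 counts in the wild-type libraries and 416 in the parental library. PPP1R12C had 24, 5 and 11 counts in the wild-type libraries against 1319 in the parental library, or 0.820, 0.278 and 0.496 against 57.1 CPM. The first intron of this gene holds AAVS1, a site often used to insert transgenes. STPG3 and UFSP1 were at 0.0297 and 0.0337 of the parental level. Whether these RNAs were missing from the engineered cells or only from their pull-down cannot be told apart here.

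When all RNA classes were scaled together, 906 of 8937 genes with over 10 CPM in the wild-type mean or the parental library (10.1%) were at least 4-fold over, and 3799 (42.5%) were at or below 1. Small nuclear and nucleolar RNAs, which live in the nucleus and guide splicing and RNA modification, had low ratios. SNORD97, with 2.44 CPM against 29.4, and others under 10 CPM in the wild-type mean passed only through the parental library. For those RNAs a ratio below 1 was fixed in advance by the filter. All 12 snRNAs and all 26 snoRNAs were at or below 1, with medians of 0.128 and 0.133. So were 3 of 3 scaRNAs (0.150) and 3 of 3 signal recognition particle (7SL) RNAs (0.154). The filter fixed this side for most of the snRNAs and snoRNAs and for every scaRNA. These counts and medians therefore largely follow from the filter. The snRNAs and snoRNAs over 10 CPM in the wild-type mean, which it did not fix, ran from 0.0858 for SNORA53 to 0.227 for RNVU1-7. RNU4-2, the U4 spliceosomal RNA, had 192 ± 27.1 CPM against 1592. RN7SL1 had 488 ± 36.4 CPM against 3177, and RMRP, the RNA of RNase MRP, was at 0.297. Many of them belong to multicopy families, so their counts are uncertain in all libraries. The mitochondrial rRNAs MT-RNR1 and MT-RNR2 were at 3.93 and 5.86, below most mitochondrial mRNAs. Unprocessed pseudogenes with ratios from 37.2 to 99.2 (MTATP6P1, MTCO1P12 and MTND2P28) are nuclear copies of mitochondrial genes and may hold reads of those genes.

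Long noncoding RNAs were mixed. Of 128, 29 (22.7%, against 10.1% of all classes) were at least 4-fold over and 52 (40.6%) at or below 1, with a median of 1.52. Most of the 29 had under 10 CPM in the parental library and passed only through the wild-type mean. For those a ratio above 1 was fixed by the filter. Only UCA1, VPS9D1-AS1 (ratio 8.01) and DANCR were at least 4-fold over with more than 10 CPM in the parental library. UCA1 (chr19:15828206-15836320), an oncofetal transcript first found in urothelial carcinoma, had 955, 783 and 856 CPM against 10.5, with 378 parental counts (ratio 82.7). LINC01278 had 94.3, 83.7 and 88.3 CPM against 6 parental counts, a ratio of 534 whose counting interval ran from 245 to 1456. With 100 parental counts it was at 32.1. LINC00370 with 77.98 ± 7.72 CPM, MMP25-AS1 with 32.5 ± 2.43 and PHLDA1-AS1 with 18.3 ± 3.61 had no parental count and were at least 939-fold, 391-fold and 221-fold over by the floor of 3 counts. With 100 parental counts their ratios were 28.2, 11.7 and 6.63. PHLDA1-AS1 lies against the enriched PHLDA1 on the other strand of chromosome 12. Counting was stranded, but whether some PHLDA1 reads entered the PHLDA1-AS1 count was not tested. DANCR, a long noncoding RNA that keeps progenitor cells undifferentiated, was at 5.65, SNHG16 at 2.19 and OIP5-AS1 at 1.14.

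Several well-known long noncoding RNAs lay below the parental level. The paraspeckle RNA NEAT1 had 42.2, 55.6 and 38.5 CPM against 191 (ratio 0.238), MALAT1 of nuclear speckles was at 0.430 and the imprinting transcript KCNQ1OT1 at 0.174. The cytoplasmic NORAD, which binds Pumilio proteins, was at 0.514 and GAS5 at 0.335. JPX, an activator of X inactivation, was over the parental level at 1.83. The 3 lowest by rule were MIRLET7BHG, the host transcript of let-7 microRNAs, at 0.158, and 2 unnamed transcripts, ENSG00000275888 at 0.0934 and ENSG00000287356 at 0.0790. All of them had under 10 CPM in the wild-type mean and passed only through the parental library, so a ratio below 1 was fixed for them. With total counts in place of TMM the median of the long noncoding RNAs went to 0.716, below 1, and 11 were at least 4-fold over. The mitochondrial rRNAs then had a median of 2.30. Every small RNA above was again at or below 1, a side that the filter fixed for most of them.

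**Figure D4:**
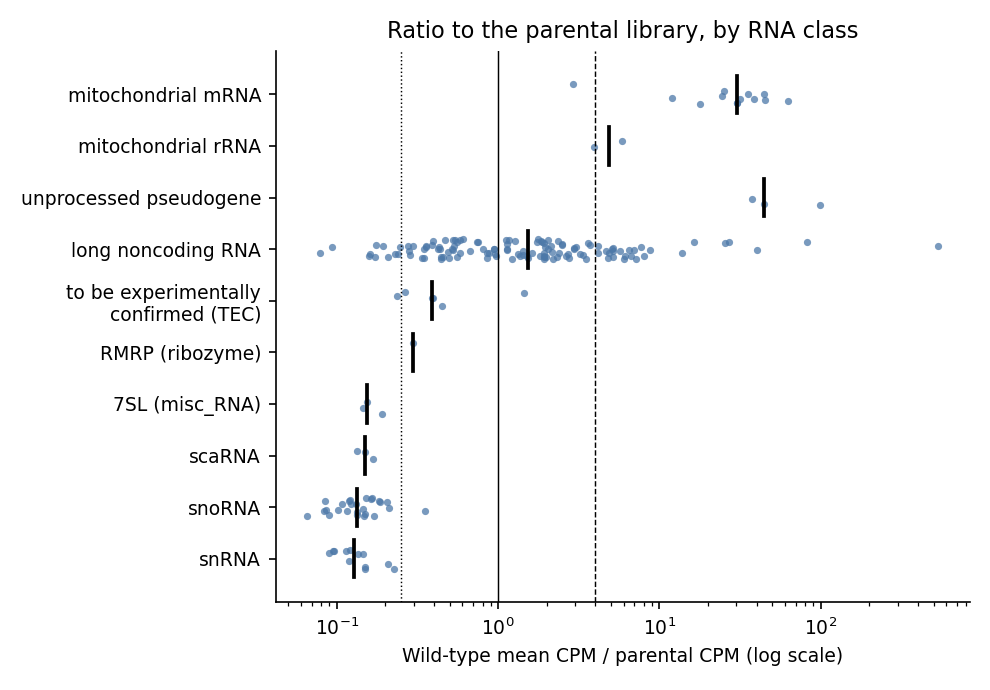
Ratio of the wild-type mean to the parental library on a log scale for genes of each RNA class other than nuclear mRNA, all classes scaled together. Points are genes with a parental count above 0, black bars are class medians over all genes of the class, and lines mark ratios of 0.25, 1 and 4. Small nuclear, nucleolar and 7SL RNAs lie near 0.13 to 0.15, and most of them passed the filter only through the parental library. Long noncoding RNAs spread on both sides, and mitochondrial mRNAs reach 62.6.

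The class at or below the parental level differed from the rest in transcript features that the ratio does not use. Nuclear mRNAs at least 4-fold over had a median 3′ UTR of 1755 bases (interquartile range 883 to 3072), those between 1 and 4-fold of 1818 and those at or below the parental level of 1163 (452 to 2621). At a ratio of 0.25 or less the median was 392.5 bases over 70 genes, it was larger in each bin up to 1959 at a ratio of 2 to 4, and it was 1897 bases at 4 to 8, 1496 at 8 to 16 and 1803 over 16. Coding length showed little of this between the 3 classes, with medians of 1460, 1488 and 1425 bases. It too was shorter at the low end, at 979.5 bases at a ratio of 0.25 or less and 1263 at 0.25 to 0.5, against 1503 at 0.5 to 1. GC content of the transcript was 47.6% in the enriched class, 47.1% in the middle and 50.1% at or below the parental level. The enriched and middle classes thus lay close to each other, and the class at or below the parental level lay apart from both.

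Short motifs of RNA-binding proteins differed between the classes in various orders. The letters CAT, the core of the motif CAUH, occurred at a median of 16.3 per kb of transcript in the enriched class, 15.8 in the middle and 14.5 at or below the parental level. GGAC, which contains the commonest site of m6A, occurred at 3.29, 3.35 and 3.89 per kb in the enriched, middle and low classes. TGTA, the core of Pumilio sites, was at 3.63, 3.68 and 3.26 per kb and thus highest in the middle class. All were counted on the transcript strand. Across 8687 nuclear genes with a parental count, Spearman's rho with the ratio was 0.204 for 3′ UTR length (8680 genes), 0.214 for CAT density, -0.112 for GC content and 0.0358 for coding length. These genes share the same 4 libraries, and the ratio itself falls with the parental CPM (rho -0.383), its denominator, so these values are a description across genes and not replicates.

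**Figure D5:**
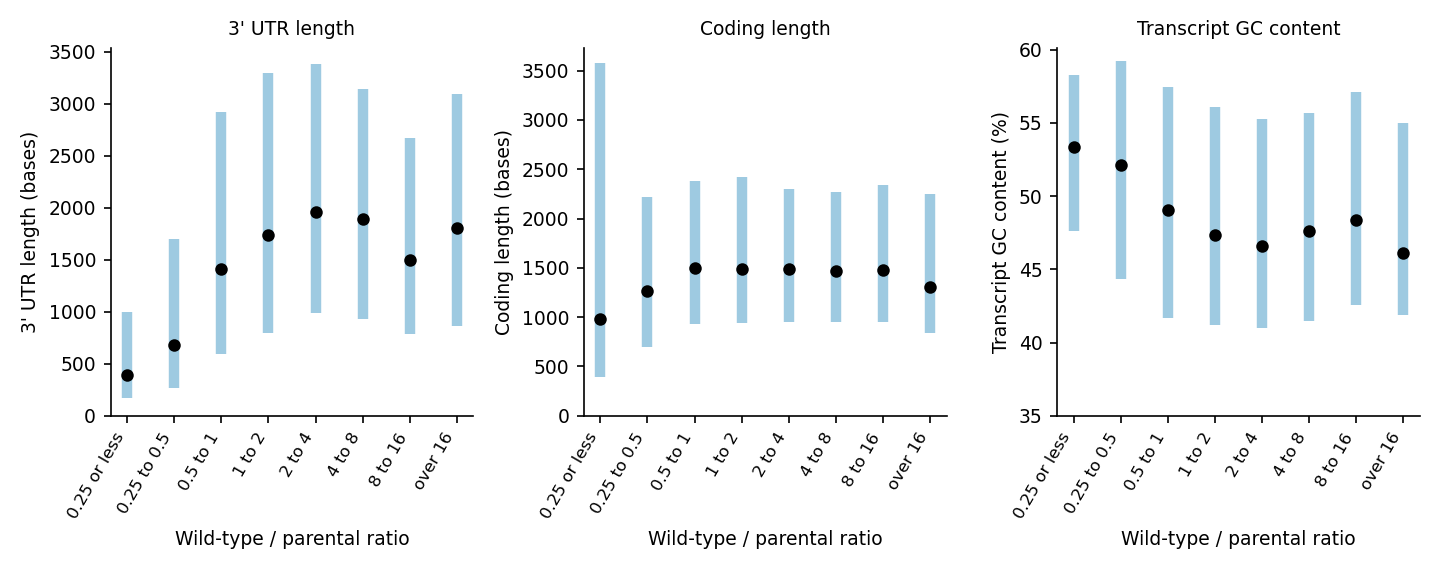
3′ UTR length, coding length and GC content of the canonical transcripts of nuclear mRNAs by their ratio of wild-type to parental CPM. Points are medians and bars are interquartile ranges over the genes of each bin. Median 3′ UTR length is 392.5 bases at a ratio of 0.25 or less and 1959 at 2 to 4, and GC content goes from 53.4 to 46.6% over the same bins. Median coding length is 979.5 bases at 0.25 or less, 1263 at 0.25 to 0.5, and between 1306.5 and 1503 at every ratio over 0.5.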

How the data were processed

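The authors trimmed the reads, aligned them to hg38 with STAR 2.7.11b and the GENCODE release 46 annotation, allowing 2 mismatches, and counted reads on exons with featureCounts of Subread 2.0.6 on the reverse strand. The values the authors deposited are raw counts for 63086 genes in each library. Symbols, biotypes and canonical transcripts came from GENCODE release 44 by Ensembl identifier, and 545 identifiers were not found. Per the methods, replicate dishes were plated and grown separately.

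TMM factors over the protein-coding genes of all 25 libraries were computed with edgeR 4.0.16 in R 4.3.3, and the ratios and lists in Python 3.11.15 (pandas 2.3.3). Plots were drawn by matplotlib 3.10.9. Protein-coding genes over 10 CPM in at least 11.5 of the 23 fusion libraries were kept. The authors' methods ask for 10 CPM in 50% of the libraries, and counting only the fusion libraries was a choice made here. For RNA classes, TMM was computed over all biotypes. No test was run. Counting intervals are exact Poisson intervals at 95%. The ratio step was tested on simulated data. No libraries held identical counts.

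Read totals, low counts and their limits are given with the results, and RNA-Seq was not analysed here. Members, lists and rules were chosen with earlier results of these data known. Named genes are the IGF2BP family, genes named by the study, the 15 highest ratios of the lowest wild-type library at 10 or more parental counts, the 5 highest wild-type CPM at fewer, the 10 highest CPM among enriched genes, the 10 lowest ratios, 5 high and 3 low long noncoding RNAs, and the 2 highest and 2 lowest of each list. Alternatives covered scaling (with DESeq2 1.42.0 size factors), filter, threshold, parental counts and replicates. Some genes that the rule names are not reported here.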

Additional observations from a re-analysis of the deposited data

How the results depend on the processing

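No paired analysis was possible because the parental background has 1 library and no test was run. The 802 genes at least 4-fold over, the 3757 at or below the parental level and the 70 at 0.25 or less depended most on the scaling. With total counts they numbered 375, 5831 and 630, and the median of all genes shifted by -0.72 on the log2 scale, which took the medians of 14 of 27 lists from above to below 1 but none across the median of all genes. With mitochondrial mRNA counts as library size they numbered 34, 8683 and 8440. DESeq2 size factors gave 737, 4033 and 98. With no filter beyond 10 counts over the 4 libraries the numbers were 2526, 6166 and 812 of 13625 genes. Genes at 0.25 or less numbered 209 with a filter of 10 CPM in the wild-type mean or the parental library, 45 with all biotypes and 131 by the lowest wild-type library. A threshold of 2-fold gave 2237 genes and 8-fold 287. Leaving out each wild-type replicate gave 778 to 808, 3740 to 3782 and 65 to 85. With mitochondrial scaling, ratios over 4 turned below 1 for HMGA2 (0.288), PABPC1 (0.449), PHC3 (0.247), GARS1 (0.150), MT-CO1 (0.739), HMGA1 (0.506), MT-CO2 (0.888), MT-ND5 (0.926), PHLDA1 (0.882), MT-ND3 (0.347), EIF4G3 (0.166), FOSL1 (0.200), EGR3 (0.186), ATXN2 (0.533), DROSHA (0.131), DVL3 (0.207), SMURF1 (0.177), HS2ST1 (0.377), FUT8 (0.245), SLC39A6 (0.235), PHC1 (0.452), PCGF2 (0.254), CCNA2 (0.187), BTG2 (0.160), PFN1 (0.186), WASF2 (0.183), ZNF580 (0.249) and ZNF585B (0.195), since that scaling sets the mitochondrial mRNAs near 1 by construction. The single parental library, its 18942497 counts and its few low counts limit every high ratio.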
